A study of Mus musculus with 6 samples.

Results

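The serpin protease inhibitors of mouse liver were taken as every gene whose symbol is Serpin followed by a clade letter from a to i and a number, which gave 63 of the 23284 genes in the deposited count tables. Their RNA was measured by sequencing total liver RNA from Trim24 knockout mice (genotype Trim24 -/-, 3 libraries) and wild type mice (3 libraries). All animals were 8 weeks old and of the C57BL6/J strain. How the Trim24 allele was made and whether each library came from a separate mouse are not given in the sources used here, so the p-values speak only of the spread among these libraries, which may be technical. The libraries are called KO1 to KO3 and WT1 to WT3 by the replicate number in the labels. TRIM24 is a cofactor of nuclear receptors, and the series title concerns its part in fat accumulation and carcinoma of the liver.

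Serpins are a family of folded proteins that mostly act as suicide substrates. An exposed loop is offered to a protease, the protease cuts it, and the serpin changes shape and traps the enzyme in a dead complex. The liver makes most of the serpins of blood plasma, which restrain the proteases of inflammation, clotting, fibrinolysis and complement, while some members have lost inhibition and carry hormones or fold collagen. In mice the genes for alpha-1-antitrypsin (Serpina1) and antichymotrypsin (Serpina3) have multiplied into clusters of close copies, and several of the copies respond to inflammatory signals as acute-phase genes.

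Of the 63 genes, 25 belong to clade A (secreted inhibitors and hormone carriers), 27 to clade B (serpins that stay inside cells) and 11 to clades C to I. A count of 0 in every library was found for 15 genes, 14 of them in clade B. Another 24 genes had reads but did not pass the filter on low counts, and 24 were tested. Of the tested genes, 24 of 24 are accounted for below, 16 of clade A, 2 of clade B and 6 of the other clades. Clade A holds 1 gene on the X chromosome (Serpina7), and the other 24 lie together within 800 kb of chromosome 12.

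The depth was low. Reads in genes numbered 1607276 to 2872421 in the knockout libraries and 1495583 to 1732309 in the wild type libraries, and 93.29% to 95.76% of counted reads lay in no gene. Levels are given as CPM, each count divided by the TMM-scaled total of the tested genes and multiplied by 1e+06. Where a gene has no read, up to 3 counts are still allowed, which was worth 1.04 to 1.86 CPM in the knockout libraries and 1.78 to 2.10 CPM in the wild type libraries, for counting error only. Trim24 itself had 3, 2 and 2 counts in KO1 to KO3, against 31, 45 and 44 counts in WT1 to WT3. The tissue was liver by its markers, with 6 summed hepatocyte markers at 80100 to 110000 CPM in the knockout libraries and 114000 to 124000 CPM in the wild type libraries. KO1 and KO3 also held transcripts of pancreatic acinar cells, whose 20 listed markers summed to 1010 CPM in KO1, 14.1 CPM in KO2 and 660 CPM in KO3, against 12.5 to 39.8 CPM in the wild type libraries, with Prss1 and Amy2a5 at 0 throughout. In bulk liver RNA, fewer cells of a type and less RNA per cell cannot be told apart.

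The sequences just upstream of 5 genes are shown first, because the counts of these close copies are described side by side further on. Each is the 250 bases before the gene's RefSeq start on GRCm38.p6, printed 5′ to 3′ on the gene's own strand. Serpina1e (chr12:103956898-103957147, minus strand) and Serpina1a (chr12:103863620-103863869, minus strand) were identical at 184 of 193 aligned bases, and capitals mark the bases that differ from the other gene within the aligned stretch.
Serpina1e: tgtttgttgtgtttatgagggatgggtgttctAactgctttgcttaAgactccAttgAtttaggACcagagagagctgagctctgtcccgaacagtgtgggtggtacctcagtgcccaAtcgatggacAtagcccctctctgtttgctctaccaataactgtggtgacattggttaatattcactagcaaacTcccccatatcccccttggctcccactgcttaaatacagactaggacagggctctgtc
Serpina1a: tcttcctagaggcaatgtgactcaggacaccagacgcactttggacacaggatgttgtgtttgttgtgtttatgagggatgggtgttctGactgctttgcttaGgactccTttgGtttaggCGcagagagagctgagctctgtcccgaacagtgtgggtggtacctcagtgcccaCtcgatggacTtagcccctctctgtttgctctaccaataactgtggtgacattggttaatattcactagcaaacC
Serpina3n (chr12:104406458-104406707, plus strand) and Serpina3c (chr12:104153873-104154122, minus strand) were identical at 229 of 247 aligned bases, with differing bases in capitals in the same way.
Serpina3n: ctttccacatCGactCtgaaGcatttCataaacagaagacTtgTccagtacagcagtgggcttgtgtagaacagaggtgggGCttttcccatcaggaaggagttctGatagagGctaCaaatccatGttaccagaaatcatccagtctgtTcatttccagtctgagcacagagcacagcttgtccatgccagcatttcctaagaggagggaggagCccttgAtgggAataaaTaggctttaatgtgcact
Serpina3c: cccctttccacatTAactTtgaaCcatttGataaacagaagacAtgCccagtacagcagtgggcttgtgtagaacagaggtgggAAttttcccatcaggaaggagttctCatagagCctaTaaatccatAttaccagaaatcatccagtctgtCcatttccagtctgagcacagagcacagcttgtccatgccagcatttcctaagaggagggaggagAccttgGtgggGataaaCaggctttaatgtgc
Serpina3g (chr12:104235897-104236146, plus strand) is shown for a match to the core of STAT binding sites, TTCNNNGAA, which stands in capitals and begins 33 bases before the start.
Serpina3g: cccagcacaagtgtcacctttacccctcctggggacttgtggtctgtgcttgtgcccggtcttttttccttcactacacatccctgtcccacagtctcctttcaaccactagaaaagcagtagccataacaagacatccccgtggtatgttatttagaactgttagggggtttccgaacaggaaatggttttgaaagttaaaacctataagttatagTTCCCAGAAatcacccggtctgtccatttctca

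Letters of 4 motifs were searched on both strands in the windows of the 18 tested serpins that the RefSeq table holds. A serpin with several windows counted when any of them matched, while the share over all windows counts each window. TTCNNNGAA occurred in 3 of the 18 and in 7.02% of all 32851 windows of the same length. The C/EBP letters TTGCNNAA occurred in 5 of 18 and in 9.56% of all windows, and among the Serpina1 copies they were found for Serpina1b, Serpina1d and Serpina1e but for neither Serpina1a nor Serpina1c. The interferon response letters, TTTC and again TTTC with any 2 bases between, occurred in 2 of 18 and 2.98% of all windows, and the HNF1 letters, GTTAAT and ATT with any base between, in 0 of 18 and 0.371%. In Serpinb6a the STAT and interferon matches overlap each other. A match describes letters and was not tested as a binding site, and sites that differ from these exact letters were not counted.

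In all, 3 serpins rose in Trim24 knockout liver and none was called lower. Serpinh1, the collagen chaperone HSP47, had the largest called change, at 2.75-fold, followed by the acute-phase antichymotrypsin copy Serpina3n at 2.21-fold and Serpina10, the protein Z-dependent inhibitor of clotting factor Xa, at 1.64-fold. A call is an edgeR quasi-likelihood p under 0.05 after Benjamini-Hochberg adjustment over all 9180 tested genes. Higher calls were 3 of 24 tested serpins, where 3.08% of all tested genes were called higher, and lower calls were 0 of 24 against 2.65% of all tested genes (3 of 24 and 5.73% in either direction). At an unadjusted p under 0.05, 12 of the 24 passed, against 20.3% of all tested genes. DESeq2 also gave 3 serpins higher and 0 lower, where it called 2.83% of all tested genes higher and 2.86% lower. The median log2 fold change was -0.05 for the 24 serpins and 0.01 for all tested genes, and 11 of 24 serpins had a positive value (45.8%, against 50.8% of all tested genes). The 2 groups did not overlap for 7 of the 24, with knockout above in 4 and below in 3, where 25% of all tested genes did not overlap (12.4% with knockout above and 12.6% below).

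**Figure D1:**
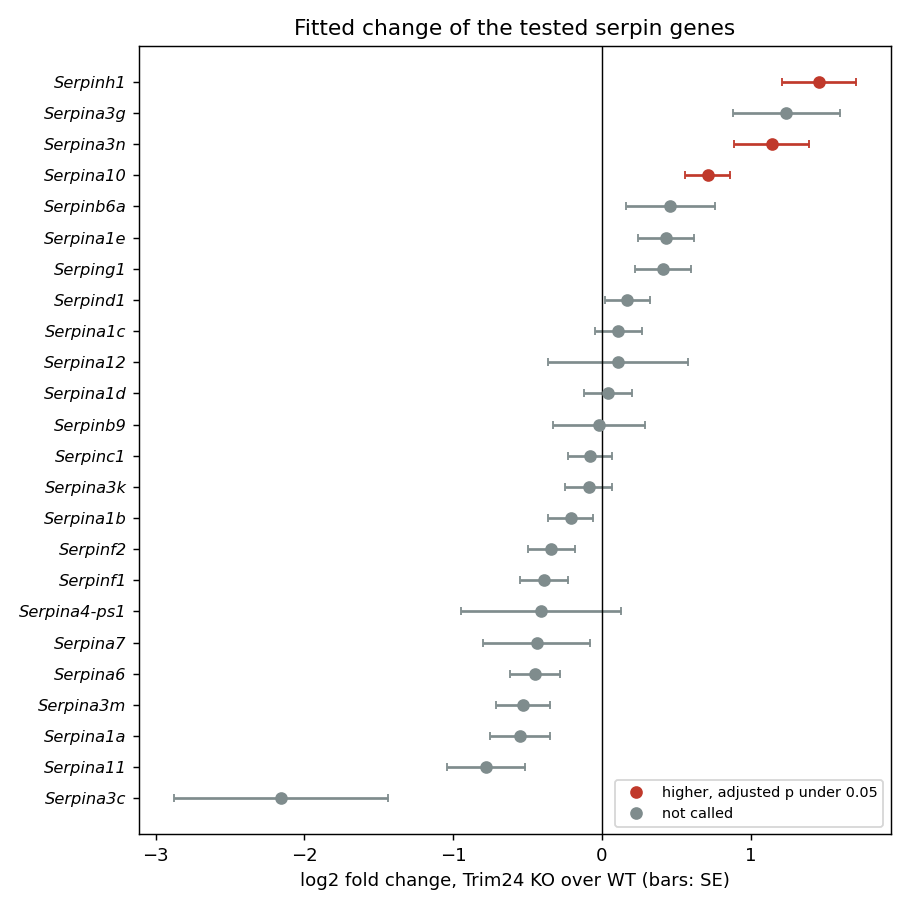
Log2 fold change of knockout over wild type for the 24 tested serpins, with bars for the standard error and red for the 3 genes called higher. Serpinh1, Serpina3n and Serpina10 were called, and Serpina3c has the lowest value (-2.16) with the widest bar (0.72).

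Together the serpins took up 3% to 3.78% of reads in genes in the knockout libraries and 2.99% to 3.30% in the wild type libraries. Per kb of transcript the order of levels was led by Serpina1e, Serpina3k (a kallikrein-binding copy of the Serpina3 group) and Serpina1c in both genotypes. They stood at 5540 ± 1560, 3750 ± 702 and 3520 ± 298 CPM per kb in the knockout and 4100 ± 185, 3990 ± 147 and 3250 ± 469 CPM per kb in wild type (SD, n = 3 each). Serpina1e and Serpina3k lay within their spread of each other in wild type. The order takes no account of shared sequence. Of the 50-base stretches, 34.6% of Serpina1e, 14% of Serpina3k and 79.3% of Serpina1c also occurred in another gene. Serpina3n held place 7 in the knockout and place 12 in wild type, at 675 ± 171 and 306 ± 113 CPM per kb. Summed over each group, the copies differed between genotypes by less than their spread between libraries. The Serpina1 group summed to 19387.2 ± 2350 CPM in the knockout and 18807.5 ± 1940 CPM in wild type (log2 ratio 0.04), and the Serpina3 group to 9530.7 ± 1520 and 9427.3 ± 549 CPM (log2 ratio 0.02).

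The Serpina1 genes encode alpha-1-antitrypsin, which protects tissue from neutrophil elastase, and differ between copies in the loop that meets the protease. None of the 5 tested copies was called, but their make-up differed between libraries. Serpina1a had 3360, 2280 and 2430 CPM in KO1 to KO3, against 4940, 3100 and 3790 CPM in WT1 to WT3 (log2 fold change -0.55, SE 0.20, edgeR adjusted p = 0.13). KO2 and KO3 were the lowest of the 6 libraries and KO1 lay inside the wild type range. Serpina1e had 5230, 7030 and 9260 CPM in KO1 to KO3, against 5320, 5070 and 5550 CPM in WT1 to WT3 (log2 fold change 0.43, SE 0.19, adjusted p = 0.22). Here too KO2 and KO3 stood apart, as the highest, while KO1 was inside the wild type range. Without KO1, Serpina1a was called lower (-0.75, adjusted p = 0.033) and Serpina1e higher (0.61, adjusted p = 0.034).

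The other copies of the group were closer to wild type. Serpina1b had 2810, 2450 and 3210 CPM in KO1 to KO3, against 3170, 3120 and 3520 CPM in WT1 to WT3 (adjusted p = 0.48). Serpina1c had 4340, 5120 and 4920 CPM in KO1 to KO3, against 5030, 3760 and 4500 CPM in WT1 to WT3 (adjusted p = 0.75). Serpina1d had 1600, 1980 and 2130 CPM in KO1 to KO3, against 1980, 1610 and 1950 CPM in WT1 to WT3 (adjusted p = 0.92). The groups overlapped for each of these. Serpina1f had 2 reads in all, 1 each in KO2 and KO3.

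As shares of the reads of the group, Serpina1e made up 30.2%, 37.3% and 42.2% in KO1 to KO3, against 26.0%, 30.4% and 28.7% in WT1 to WT3. Serpina1a made up 19.4%, 12.1% and 11.1% in KO1 to KO3, against 24.2%, 18.6% and 19.6% in WT1 to WT3. The ratio of Serpina1c to Serpina1a reads was 1.29, 2.25 and 2.03 in KO1 to KO3, against 1.02, 1.22 and 1.19 in WT1 to WT3, with no overlap. The ratios of Serpina1e, Serpina1d and Serpina1b to Serpina1a all overlapped between genotypes. These splits carry a limit. The coding sequences of the 5 copies were 96.3% to 98.5% identical over 10 pairs, with Serpina1a and Serpina1c the closest pair. Of the 50-base stretches, 79.3% of Serpina1c, 57.6% of Serpina1a and 34.6% of Serpina1e also occurred in another gene. The sources used here do not say how reads that match several copies were counted, and a read can only be told apart where the copies differ.

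**Figure D2:**
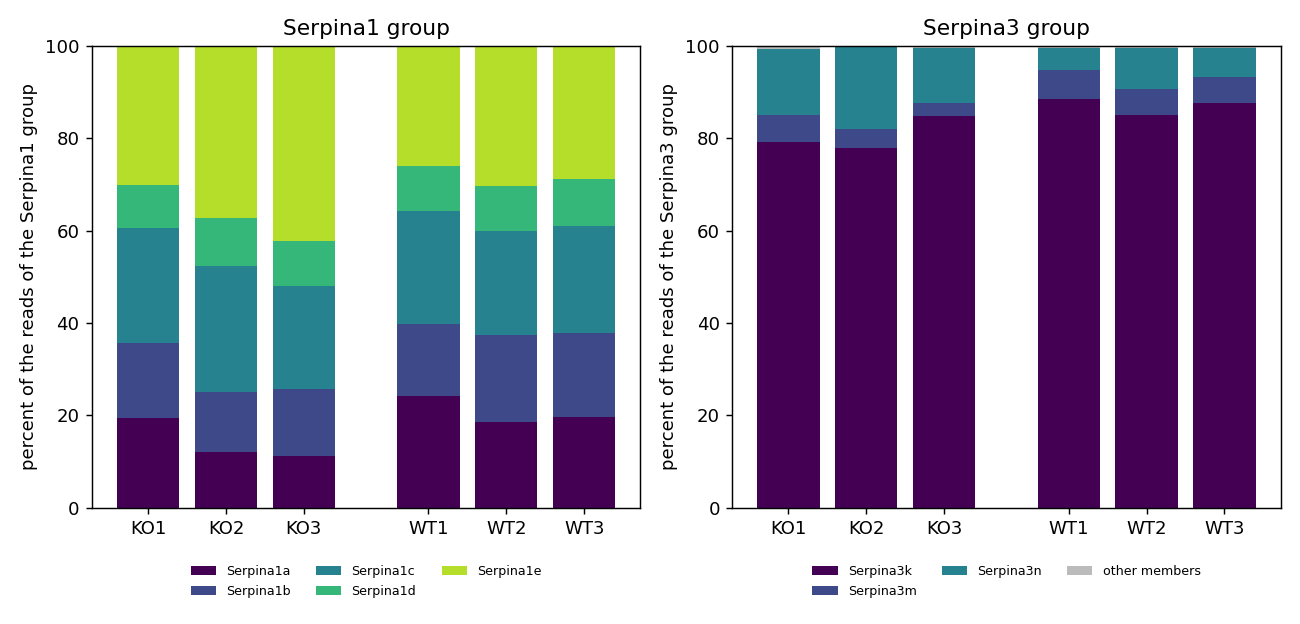
Percent of the reads of the Serpina1 group (left) and the Serpina3 group (right) that were counted in each copy, 1 bar per library with the knockout libraries on the left. Serpina1e reaches 42.2% in KO3, against at most 30.4% in a wild type library, and Serpina3n takes a larger part of its group in each knockout library.

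In the Serpina3 group, 1 of the 5 tested copies was called. Serpina3n, which inhibits granzyme B and elastases and is a marker of inflammation in mice, had 1110, 1790 and 1280 CPM in KO1 to KO3, against 438, 891 and 566 CPM in WT1 to WT3. Every knockout library lay above every wild type one, and the log2 fold change was 1.14 (SE 0.25, edgeR adjusted p = 0.015). The call ended without WT1 (0.073), WT3 (0.090) or KO2 (0.062), at log2 fold changes of 0.93 to 1.07. Only 6.90% of its 50-base stretches occurred in another gene. Its abundant neighbour Serpina3k had 6190, 7890 and 9060 CPM in KO1 to KO3, against 8060, 8550 and 8000 CPM in WT1 to WT3 (adjusted p = 0.82), so the groups overlapped. The ratio of Serpina3n to Serpina3k reads was 0.179, 0.228 and 0.142 in KO1 to KO3, against 0.0543, 0.104 and 0.0707 in WT1 to WT3.

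Serpina3m had 456, 401 and 291 CPM in KO1 to KO3, against 564, 574 and 515 CPM in WT1 to WT3. The knockout libraries were all below wild type, at a log2 fold change of -0.53 (SE 0.18) and an edgeR adjusted p of 0.10. In GENCODE its exons overlap those of Serpina3k on the same strand, and 19.1% of its 50-base stretches occur elsewhere. Serpina3g, an inhibitor found inside mouse leukocytes that acts on cathepsins, had 18.0, 15.2 and 26.1 CPM in KO1 to KO3, against 14.0, 7.27 and 4.75 CPM in WT1 to WT3 (log2 fold change 1.24, SE 0.36, adjusted p = 0.061). The groups did not overlap, though KO2 and WT1 were close. The next copy, Serpina3f, was below the filter with 13, 8 and 42 counts in KO1 to KO3 and 3, 9 and 7 counts in WT1 to WT3. The Kupffer cell and macrophage markers summed to 378, 723 and 713 CPM in KO1 to KO3, against 233, 428 and 325 CPM in WT1 to WT3. Of the 13 listed markers that the tables hold 12 were tested and 3 rose, where 3.08% of all tested genes were called higher. None of these markers was at 0 in all libraries, and their part in the Serpina3g values was not tested.

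Serpina3c had almost no reads in KO2 and KO3. Its counts were 33, 2 and 1 in KO1 to KO3, against 26, 50 and 53 in WT1 to WT3, which is 20.4, 1.09 and 0.348 CPM in the knockout against 18.2, 33.1 and 31.5 CPM in wild type. KO1 lay within the wild type range, and KO2 and KO3 were at or below the level that 3 counts are worth. The log2 fold change was -2.16 with an SE of 0.72, and the gene was not called (edgeR adjusted p = 0.099). Without KO1 it was -5.30 (adjusted p = 5.2e-05), and without KO3 it was -1.42 (adjusted p = 0.22). On all libraries it was -3.87 with limma-voom (adjusted p = 0.016), -1.96 with the edgeR exact test (adjusted p = 0.16) and -1.93 with DESeq2 (adjusted p = 0.62). Its upstream window is the one printed beside that of Serpina3n, which it matches at 92.7% of aligned bases. In KO2 and KO3, Serpina3n was above and Serpina3c below every wild type library. The 5 remaining copies, Serpina3a, Serpina3b, Serpina3h, Serpina3i and Serpina3j, had 0 to 9 reads each over all libraries.

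**Figure D3:**
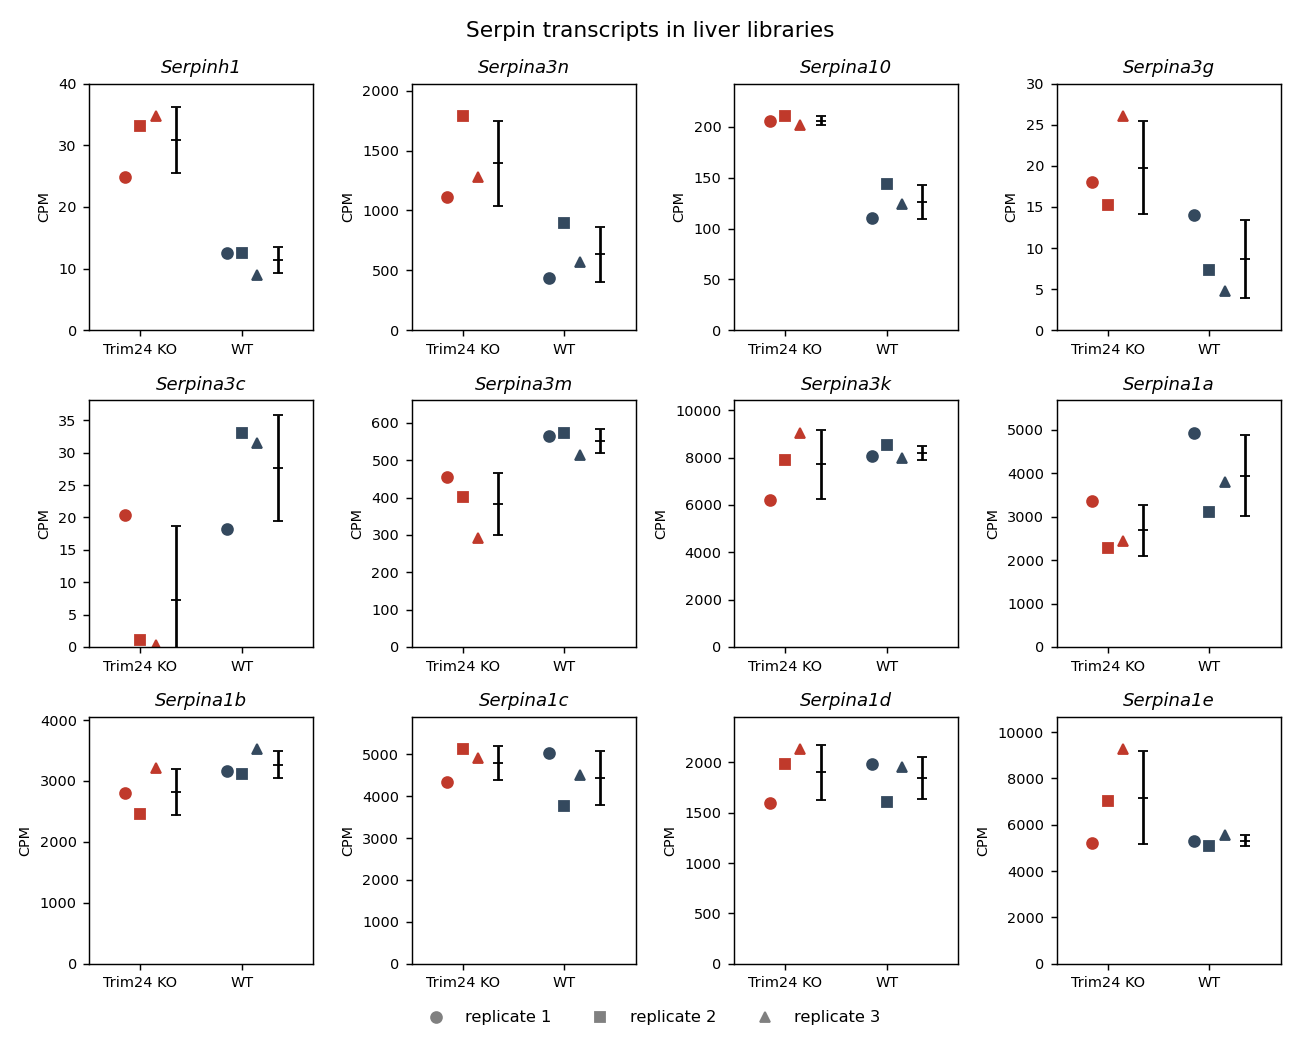
CPM of 12 serpins in each library, knockout in red on the left and wild type in blue on the right, with a separate linear axis from 0 for each gene, the replicate number as the marker shape, and the mean with SD beside the points (the lower SD of Serpina3c in the knockout runs off the axis at 0). Serpinh1, Serpina3n, Serpina10 and Serpina3g have all knockout points above all wild type points, Serpina3m has them below, and KO1 stays near wild type for Serpina3c, Serpina1a and Serpina1e.

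Of the 15 tested genes of the cluster 7 had a positive and 8 a negative log2 fold change, several of them near 0. The 2 called genes, both higher, stand at its far ends. Serpina10 had 206, 211 and 202 CPM in KO1 to KO3, against 110, 144 and 124 CPM in WT1 to WT3. The knockout libraries spread by an SD of 4.67 CPM and all lay above wild type, with a log2 fold change of 0.71 (SE 0.15, edgeR adjusted p = 0.015). The call ended without WT1 (0.073) or WT3 (0.085) and with KO2 as the only knockout library (0.051). The next gene along, Serpina6, encodes the plasma carrier of corticosteroids, and had 146 ± 28.7 CPM in the knockout and 199 ± 24.6 CPM in wild type (-0.45, SE 0.17, adjusted p = 0.15). Without KO1 it was -0.62, with an adjusted p of 0.0498.

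**Figure D4:**
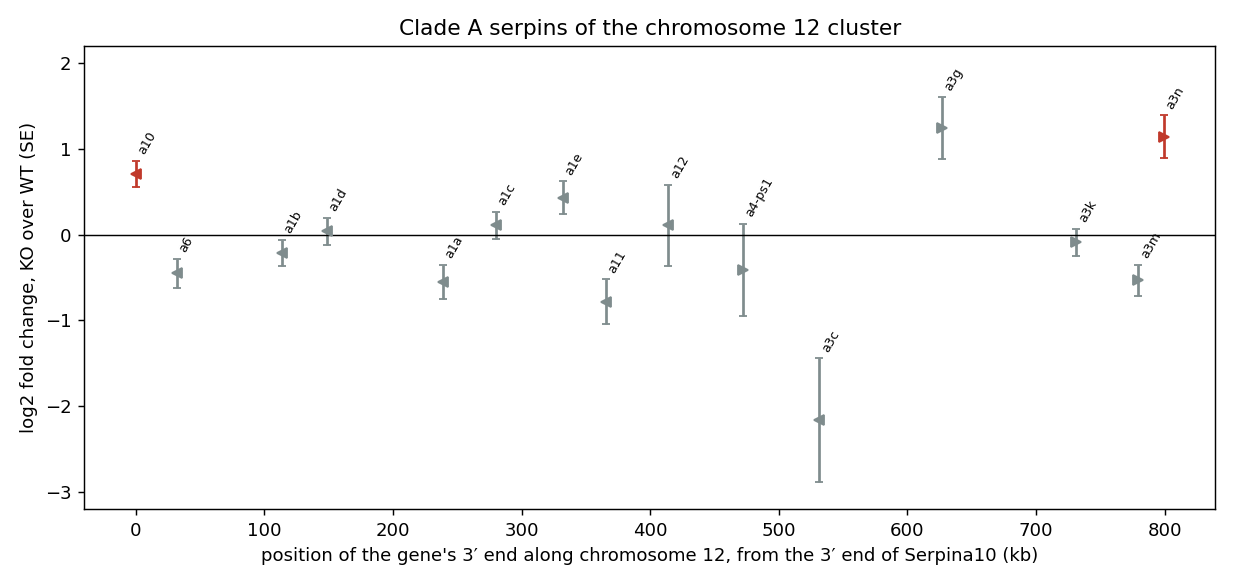
Log2 fold change with SE of the 15 tested serpins of chromosome 12, placed by the position of each gene's 3′ end in kb from that of Serpina10, with arrowheads for the strand and red for genes called higher. Serpina10 at the left end and Serpina3n at the right end are the called genes, and genes between them have values from -2.16 (Serpina3c) to 1.24 (Serpina3g).

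The clade A members with other roles showed no call. Serpina11 had 63.8, 26.1 and 36.9 CPM in KO1 to KO3, against 65.0, 82.7 and 66.5 CPM in WT1 to WT3 (log2 fold change -0.78, SE 0.26, edgeR adjusted p = 0.099). KO1 was just below the lowest wild type library, and without KO1 the gene was called lower (-1.16, adjusted p = 0.0047). Its exons overlap those of Gm28577 on the same strand, and 35.7% of its 50-base stretches occur there. Serpina7, the carrier of thyroxine, had 21.5 ± 13.8 CPM in the knockout and 28.9 ± 6.49 CPM in wild type (adjusted p = 0.54).

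Several tested serpins, Serpina3k and Serpinb9 among them, varied more between libraries of the same genotype than between genotypes. The spread was wide for a pair of clade A members. Serpina12, which encodes the adipokine vaspin, had 26.0, 7.60 and 49.4 CPM in KO1 to KO3, against 39.8, 15.2 and 25.5 CPM in WT1 to WT3 (adjusted p = 0.93). The pseudogene Serpina4-ps1 had 178, 158 and 435 CPM in KO1 to KO3, against 594, 66.1 and 371 CPM in WT1 to WT3 (adjusted p = 0.73). Replicate 2 was the lowest of its genotype for both genes.

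For Serpina3n, replicate 2 was instead the highest of each genotype. That held for 4 of the 24 tested serpins (Serpina3n, Serpina10, Serping1 and Serpinb9), for 15 of 23 tested acute-phase genes outside the family and for 12.5% of all tested genes, and Steap4, Saa3 and Crp were among the acute-phase genes that did not share it. The acute-phase gene Saa2 had it, at 500, 1770 and 381 CPM in KO1 to KO3, against 22.4, 199 and 9.5 CPM in WT1 to WT3. So did Lcn2, at 22.9, 125 and 20.9 CPM in KO1 to KO3, against 2.79, 11.2 and 5.34 CPM in WT1 to WT3. The C1 inhibitor gene Serping1, which restrains the first proteases of complement and contact activation, also had replicate 2 as the highest, at 739, 964 and 643 CPM in KO1 to KO3, against 502, 718 and 543 CPM in WT1 to WT3. Its groups overlapped and it was not called (log2 fold change 0.41, SE 0.19, edgeR adjusted p = 0.24). Of 23 tested acute-phase genes outside the family 4 rose and 1 fell, where 3.08% of all tested genes were called higher and 2.65% lower (median log2 fold change 0.50, against 0.01 over all tested genes). The smallest adjusted p-values were those of Steap4 (644 ± 204 CPM in the knockout and 212 ± 19.4 CPM in wild type, adjusted p = 0.00061) and Saa3 (15.7 ± 4.02 and 2.13 ± 0.824 CPM, adjusted p = 0.0013), while Crp fell (539 ± 83.0 and 861 ± 178 CPM, adjusted p = 0.044). Of 20 genes of interleukin 1, interleukin 6 and STAT3 signalling 4 rose and none fell, against the same 3.08% and 2.65%, and the median log2 fold change was 0.25, against 0.01 over all tested genes. They were the interleukin 1 receptor gene Il1r1 (181 ± 69.0 CPM in the knockout and 82.7 ± 10.5 CPM in wild type, adjusted p = 0.017), Socs3, an inhibitor of STAT3 signalling (19.9 ± 12.4 and 4.78 ± 2.16 CPM, adjusted p = 0.029), Tnfrsf1a (adjusted p = 0.038) and Nfkbiz (adjusted p = 0.044).

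**Figure D5:**
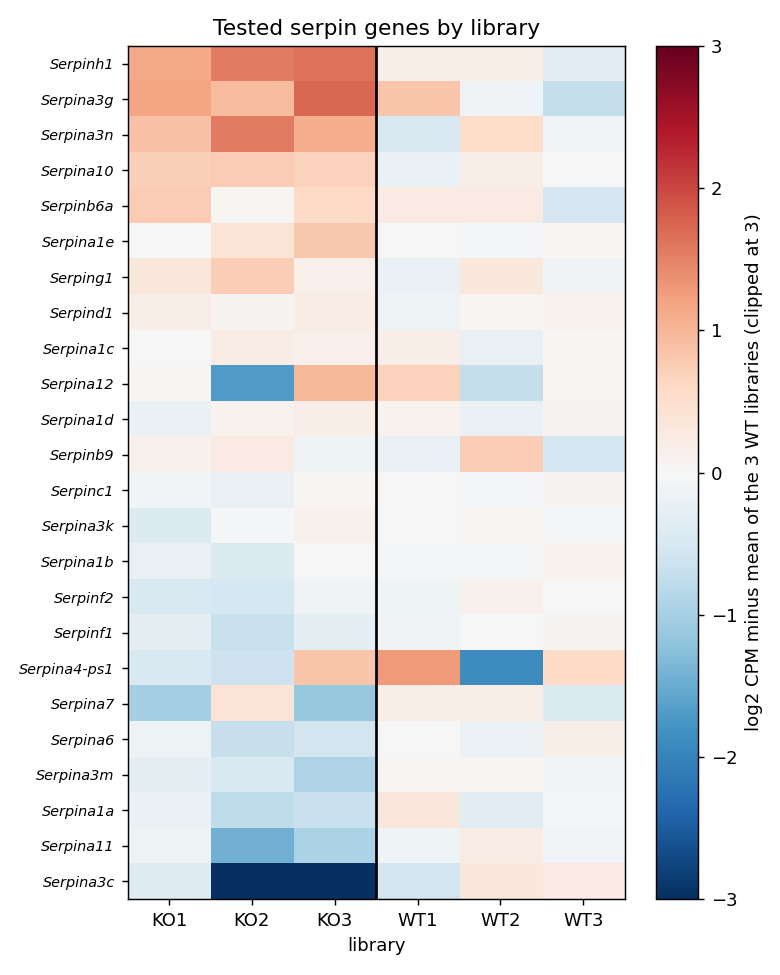
Log2 CPM of the 24 tested serpins in each library minus the mean of the 3 wild type libraries, clipped at 3 in both directions, with knockout libraries on the left and genes ordered by fitted change. Serpina3c reaches -4.62 in KO2 and -6.26 in KO3 but -0.38 in KO1, and Serpina4-ps1 spans -1.89 to 1.28 among the wild type libraries.

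The serpins of clotting and fibrinolysis other than Serpina10 were not called. Antithrombin (Serpinc1), the main inhibitor of thrombin, had 1530, 1400 and 1710 CPM in KO1 to KO3, against 1610, 1560 and 1730 CPM in WT1 to WT3 (log2 fold change -0.08, SE 0.15, edgeR adjusted p = 0.82). Its exons overlap those of Zbtb37 on the opposite strand, and 33.6% of its 50-base stretches also occur in another gene. Heparin cofactor II (Serpind1) averaged 603 ± 33.6 CPM in the knockout and 537 ± 50.8 CPM in wild type (adjusted p = 0.58). Alpha-2-antiplasmin (Serpinf2), the inhibitor of plasmin, averaged 577 ± 92.7 CPM in the knockout and 733 ± 71.7 CPM in wild type (adjusted p = 0.26). Its neighbour Serpinf1, which encodes the antiangiogenic factor PEDF, had 511, 391 and 509 CPM in KO1 to KO3, against 577, 623 and 654 CPM in WT1 to WT3. The groups did not overlap, at a log2 fold change of -0.39 (SE 0.16, adjusted p = 0.18).

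Below the filter, Serpine2, protease nexin 1, which inhibits thrombin and plasminogen activators, had 2, 1 and 3 counts in KO1 to KO3, against 4, 8 and 12 in WT1 to WT3. The knockout libraries were all below wild type. A looser filter (1 CPM or more in 3 libraries) kept 33 serpins, and under it Serpine2 was called lower (log2 fold change -2.37, edgeR adjusted p = 0.0409). This value rests on 6 against 24 counts over the groups. Serpine3 had 3 reads in all.

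Serpinh1 was the firmest call of the family. HSP47, its product, holds newly made collagen in the endoplasmic reticulum and inhibits no known protease. It had 24.8, 33.1 and 34.8 CPM in KO1 to KO3, against 12.6, 12.6 and 8.91 CPM in WT1 to WT3, so every knockout library lay well above every wild type one. The log2 fold change was 1.46 (SE 0.25, edgeR adjusted p = 0.0042), and the gene was called under each of the 16 alternatives fitted for it, at 1.30 to 1.58. Of 13 tested genes for collagens and their processing 3 rose and none fell, where 3.08% of all tested genes were called higher and 2.65% lower (median log2 fold change 0.29, against 0.01 over all tested genes). They were Col5a2 (29.9 ± 17.4 CPM in the knockout and 3.02 ± 2.03 CPM in wild type, adjusted p = 0.0019), Col1a2 (24.4 ± 9.13 and 8.78 ± 1.74 CPM, adjusted p = 0.016) and the prolyl hydroxylase subunit P4ha1 (39.2 ± 2.87 and 22.5 ± 3.76 CPM, adjusted p = 0.036). The sum of this list overlapped between genotypes, at 1820, 1840 and 2120 CPM in KO1 to KO3, against 1760, 2080 and 1940 CPM in WT1 to WT3. Its most abundant members, Col18a1 and P4hb, were not called (log2 fold changes -0.30 and 0.10). The stellate cell markers summed to 683, 809 and 759 CPM in KO1 to KO3, against 516, 525 and 570 CPM in WT1 to WT3. Their list is not separate from the collagen list, since Col1a1, Col1a2 and Col3a1 are in both. Within the sum, Dcn had 366 ± 46.7 CPM in the knockout and 232 ± 7 CPM in wild type. Of 11 listed stellate markers 9 were tested and 2 rose, Col1a2 and Dcn, against the same 3.08% of all tested genes called higher. None of these markers was at 0 in all libraries, and their part in the Serpinh1 call was not tested.

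Of the intracellular clade B only 2 of 27 genes were deep enough to test. Serpinb9, the granzyme B inhibitor that protects cells from their own or a killer cell's granules, averaged 18.1 ± 2.25 CPM in the knockout and 18.3 ± 8.87 CPM in wild type (edgeR adjusted p = 0.98). Serpinb6a, an inhibitor of cathepsin G, averaged 16.5 ± 4.08 CPM in the knockout and 12.1 ± 3.24 CPM in wild type (adjusted p = 0.42), and its exons overlap those of Nqo2, Ripk1 and 1110046J04Rik on the opposite strand. Below the filter, Serpinb1a, an inhibitor of neutrophil proteases, had 4, 15 and 10 counts in KO1 to KO3, against 7, 1 and 1 in WT1 to WT3. Serpinb6b had 9, 7 and 8 counts in KO1 to KO3, against 7, 7 and 4 in WT1 to WT3. Serpinb8 had 9, 9 and 10 counts in KO1 to KO3, against 4, 0 and 8 in WT1 to WT3. Serpinb3a had 7 reads, all of them in WT1. The other clade B genes with reads had 1 to 5 each.

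Among the remaining genes below the filter, Serpina5, the protein C inhibitor, had 1, 4 and 1 counts in KO1 to KO3, against 4, 1 and 3 in WT1 to WT3. Serpina9 had 2, 1 and 11 counts in KO1 to KO3, against 3, 1 and 1 in WT1 to WT3. Serpini1, the neuroserpin of brain, had 2 reads in all. Serpini2, a serpin of the exocrine pancreas, had 4, 0 and 3 counts in KO1 to KO3, against 0 in each wild type library. The knockout group was 1.71-fold higher when 3 counts stand in for the wild type group. With the counting error of both groups, the 95% interval of the ratio begins at 1.05-fold. It leaves out the spread between libraries, and KO2 had no read of Serpini2. For Serpinb3a, whose 7 reads all lay in WT1, the same interval begins at 1.97-fold with wild type higher. Its reads fell in the pair of libraries with acinar transcripts, and the part of those transcripts was not tested.

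Partners of the plasma serpins were counted in 3 lists of 19 tested genes each, and each list had 2 called genes, where 5.73% of all tested genes were called in either direction. Of the proteases that these serpins act on, 1 rose and 1 fell (median log2 fold change -0.12, against 0.01 over all tested genes). Klkb1, plasma kallikrein, which C1 inhibitor restrains, fell to 350 ± 79.8 CPM in the knockout, against 591 ± 30.5 CPM in wild type (-0.76, SE 0.18, edgeR adjusted p = 0.023), and the macrophage cathepsin gene Ctss rose to 60.9 ± 18.5 CPM, against 25.3 ± 11.2 CPM (adjusted p = 0.027). Elane, the neutrophil elastase that alpha-1-antitrypsin traps, had no read in any library. Of 19 tested receptors, cofactors and folding factors 2 rose and none fell (median 0.13). Lrp2, an endocytic receptor for serpin complexes, had 11 ± 0.602 CPM in the knockout and 1.14 ± 1.06 CPM in wild type (edgeR adjusted p = 0.0034). Its counts in WT1 to WT3 were 3, 2 and 0, at or below the level of 3 counts, so the size of its change is uncertain. The chaperone gene Hspa5 had 2080 ± 228 and 1290 ± 162 CPM (adjusted p = 0.022), while the main clearance receptor gene Lrp1 stood at 1050 ± 137 and 1220 ± 86.3 CPM (adjusted p = 0.48). Of 19 tested protease inhibitors outside the family none rose and 2 fell (median 0.11), both of them murinoglobulins. Mug1 had 7200 ± 934 CPM in the knockout and 12100 ± 715 CPM in wild type (adjusted p = 0.012), and Mug2 had 16.8 ± 9.42 and 870 ± 75.0 CPM (adjusted p = 2.3e-07).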

How the data were processed

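Read counts per gene symbol were deposited by the authors for each of the 6 libraries, without normalization. Per the submitters' processing notes, the tools were edgeR, HTSeq and TopHat 1.4.1 and the build was mm9, with no roles stated. Strand, read length and the handling of multiply aligned reads are not stated in those sources. The counter's totals, 93.29% to 95.76% of them reads in no gene, entered neither library sizes nor tests, and no column was left unused (0).

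Counts were tested with edgeR 4.0.16 (R 4.3.3), using the quasi-likelihood F test, TMM factors, filterByExpr with a minimum count of 10, and genotype as the only term. P-values were adjusted over 9180 genes. A standard error is the log2 change divided by the root of its F value. Paralog sums and shares have no test. Values in every library were to be given for each called serpin, Serpina1 and Serpina3 copies whose mean reaches 10 CPM in either group, and the 6 most abundant members; genes below the filter are named by counts where these sum to at least 10, and list genes by smallest adjusted p, up to 4 a list. Members outside this rule were named after their values were seen. The values of 1 member are not reported here. The members and lists were chosen with earlier results of these data known. The test was tested on simulated counts.

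Positions, lengths (median of transcripts linked to RefSeq), coding identity and shared stretches came from GENCODE M21 on GRCm38, and upstream sequences from RefSeq on GRCm38.p6. The notes name mm9, so no position is the authors'. Alternatives used DESeq2 1.42.0, limma 3.58.1, other scalings, filters and thresholds, libraries left out and paralogs summed. Other tools were Python 3.11.15, Biopython 1.88 and matplotlib 3.10.9.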

Additional observations from a re-analysis of the deposited data

How the results depend on the processing

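The main counts were 3 serpins called higher and 0 lower. With each library left out in turn, 1 to 4 were called higher and 0 to 5 lower, while the share of all tested genes called ran from 1.34% to 4.28% higher and from 1% to 3.8% lower, lowest without WT3 and highest without KO1. The 5 lower calls came without KO1 (Serpina11, Serpina1a, Serpina3c, Serpina3m and Serpina6), and without WT3 only Serpinh1 was called higher. The fit with KO2 as the only knockout library assumes that it varies like the wild type ones. Its log2 fold changes were 1.54 for Serpinh1, 1.5 for Serpina3n, 0.74 for Serpina10, -1.45 for Serpina11 and -4.58 for Serpina3c. In the main fit, a threshold of 0.01 left 1 higher, and one of 0.1 gave 4 higher and 2 lower. The share of all tested genes at these thresholds is not given here. With limma-voom 3 of 24 were higher and 1 lower, where 2.55% of all tested genes were called higher and 2.6% lower. With 1 CPM or more required in 3 libraries, 4 of 33 were higher and 1 lower (2.46% and 1.99% of all tested genes). With no filter beyond 1 count, 5 of 48 were higher and 5 lower (3.39% and 3% of all tested genes). Of the 3 genes called higher, all 3 were also called with DESeq2, limma-voom, the edgeR exact test and each scaling. Summing paralogs before the fit gave 2 higher and 0 lower (3.13% and 2.67% of all tested genes), since Serpina3n then lies inside its group. The cause of the other shifts was not tested.

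Signs turned for Serpina3k without scaling factors (0.00) and without KO1 (0.04), within a range of -0.22 to 0.04 when 1 library was left out, and for Serpina1d without WT2 or KO3, within -0.05 to 0.15. None of these was near the threshold. Omitting the scaling factors moved the median of all genes by 0.091 on the log2 scale. With the replicate number as a block, the fit called 3 higher and 0 lower, the same genes. In that fit 3.21% of all tested genes were called higher and 2.72% lower, and the edgeR adjusted p of Serpina3n was 0.00081. Over all tested genes, deviations of libraries with the same number correlated at -0.073, 0.079 and 0.035, and those with different numbers at -0.12 to 0.089. Values over all genes cannot show whether the numbers pair the libraries for some genes. At this depth most clade B, E and I genes could not be tested.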

Other observations

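The sex of the mice is not in the labels, and several liver serpins are known to differ between the sexes in mice. The Y-linked gene Ddx3y had 326, 452 and 547 counts in KO1, KO2 and KO3, against 245, 292 and 250 in WT1, WT2 and WT3, so all 6 libraries held Y-linked RNA. Xist, which marks cells with an inactive X chromosome, had 73, 21 and 64 counts in KO1, KO2 and KO3, against 43, 30 and 22 in WT1, WT2 and WT3. None of the 5 sex-linked transcripts was called.

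Of 18 tested genes of the growth hormone axis, which sets sex-dependent expression in mouse liver, 1 rose and 2 fell, where 3.08% of all tested genes were called higher and 2.65% lower. Mup20 had 10500 ± 1020 CPM in the knockout and 6590 ± 533 CPM in wild type (edgeR adjusted p = 0.019), Stat5b had 33.9 ± 3.90 and 57.7 ± 6.25 CPM (adjusted p = 0.022), and Elovl3 had 63.6 ± 41.1 and 175 ± 84.2 CPM (adjusted p = 0.043). Of 17 hepatocyte transcription factor genes 1 fell and none rose, namely Cebpa, at 114 ± 12.6 CPM in the knockout and 170 ± 15.9 CPM in wild type (adjusted p = 0.044). The median log2 fold change was -0.17 for the first list and -0.24 for the second, against 0.01 over all tested genes.

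Markers of other cell types were counted in the same way. Of 9 endothelial markers 1 rose and 2 fell, where 3.08% of all tested genes were called higher and 2.65% lower. Their sums were 384 to 502 CPM in the knockout libraries and 497 to 527 CPM in the wild type libraries. The 7 neutrophil markers summed to 14.2 to 30.4 CPM in the knockout libraries and 4.16 to 8.38 CPM in the wild type libraries. Of these only Csf3r was tested, and it rose (edgeR adjusted p = 0.040), while Elane was at 0 throughout. The 4 megakaryocyte and platelet markers summed to 1.86 to 5.91 CPM in the knockout libraries and 0.661 to 3.56 CPM in the wild type libraries, with none tested. The part of these cells in the serpin values was not tested.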
